A study of Mus musculus with 4 samples.

Results

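Genes that burn fatty acids and make ketone bodies were followed in mouse liver nuclei, by feeding state and by position in the liver lobule. The set held 35 genes of 32285 gene symbols in the files, chosen by symbol. It covered mitochondrial and peroxisomal fatty acid oxidation, ketone body enzymes and linked genes of the fatty acid receptor PPAR-alpha. All 35 symbols were found. The study sequenced RNA of single nuclei from liver of mice fasted for 16 to 24 h and of fed controls, with 2 libraries of nuclei per group. Each library was prepared from 50 mg of frozen liver pooled from 8 mice, so no value below belongs to a single animal. Whether the libraries of a group share their mice is not stated in the labels, so the p-values measure the spread between preparations, which may be technical. Strain, sex and age are not given in the sources used here.

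In a fasted liver, fatty acids arriving from adipose tissue are activated to coenzyme A esters and carried into mitochondria as carnitine esters. Each turn of beta-oxidation then shortens the chain by an acetyl unit and hands electrons to the electron transfer flavoprotein. Much of the acetyl-coenzyme A becomes ketone bodies for export. Peroxisomes shorten very long and branched chains, and PPAR-alpha is the receptor that senses fatty acids and activates many of these genes. Liver lobules run from the portal vein, where blood enters rich in oxygen, to the central vein. Beta-oxidation is usually described as stronger on the portal side.

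Values below are CPM, the usual scaled share of the unique molecular identifiers (UMIs, 1 per captured transcript) summed over the hepatocyte nuclei of a library. They describe nuclear RNA. Hepatocyte-like nuclei, named from markers such as Alb and Apob, numbered 18856 of 29829 used, between 3807 and 5408 per library. Fed 2 was the shallowest library, with 6779076 hepatocyte UMIs against 16858249 to 21008166 in the other 3, and 4.61% of its UMIs fell on Gm42418, where reads of ribosomal RNA collect, against 0.204% to 1.01%. Most hepatocyte clusters came mainly from 1 library. One that was led by Selenbp2 held 2702 of the 5070 nuclei of fed 1, and one led by Taco1 held 3372 of the 3807 of fed 2. In fasted 1 a cluster with Sds and Etnppl among its leading genes held 2626 of 5408, and in fasted 2 one with Cidec among them held 2404 of 4571. A cluster led by the acute-phase genes Saa2 and Saa1 held 1754 nuclei, of which 1740 came from fed 1. Summed endothelial markers in hepatocyte nuclei ranged from 7.80 to 27.6 CPM in the fasted libraries and from 25.7 to 60.3 CPM in the fed ones. Summed T or NK cell markers there had 23.5 and 12.5 CPM (fasted) versus 5.28 and 7.67 CPM (fed), higher in fasted like most members, with 0 to 3 of the 8 markers at 0. Dendritic cell markers (2.07 to 2.09 against 2.36 to 2.91 CPM) and neutrophil markers (0.465 to 0.666 against 0.830 to 0.885 CPM) were lower in both fasted libraries, and the groups overlapped for the other 7 lists, endothelial included. The part of these markers in the results was not tested. Between 12 and 42 barcodes were shared by any pair of libraries, at most 0.431% of the smaller one.

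Fasted and fed hepatocytes were compared first. Most of the genes had higher levels in fasted hepatocytes, but no member passed the test over all genes. Of the 34 members tested, 33 had a log2 fold change (fasted minus fed) above 0, against 49.5% of all 13993 genes tested. For 23 of the 34, both fasted libraries lay above both fed ones, against 20.6% of all genes, and for none did both lie below, against 15.7%. The median log2 fold change was 0.62 for the members and -0.01 for all genes. In edgeR's quasi-likelihood test with Benjamini-Hochberg adjustment, 0 of the 34 members were called at an adjusted p under 0.05, where 0.00715% of all genes were called higher and 0% lower. An unadjusted p under 0.05 was reached by 9 members, all higher in fasted, against 3.72% of all genes. DESeq2 called 2 members higher, Crat and Acadm, against 0.481% of all genes, and 0 lower, against 0.619%. Acot2, a mitochondrial thioesterase, had too few counts to be tested.

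**Figure D1:**
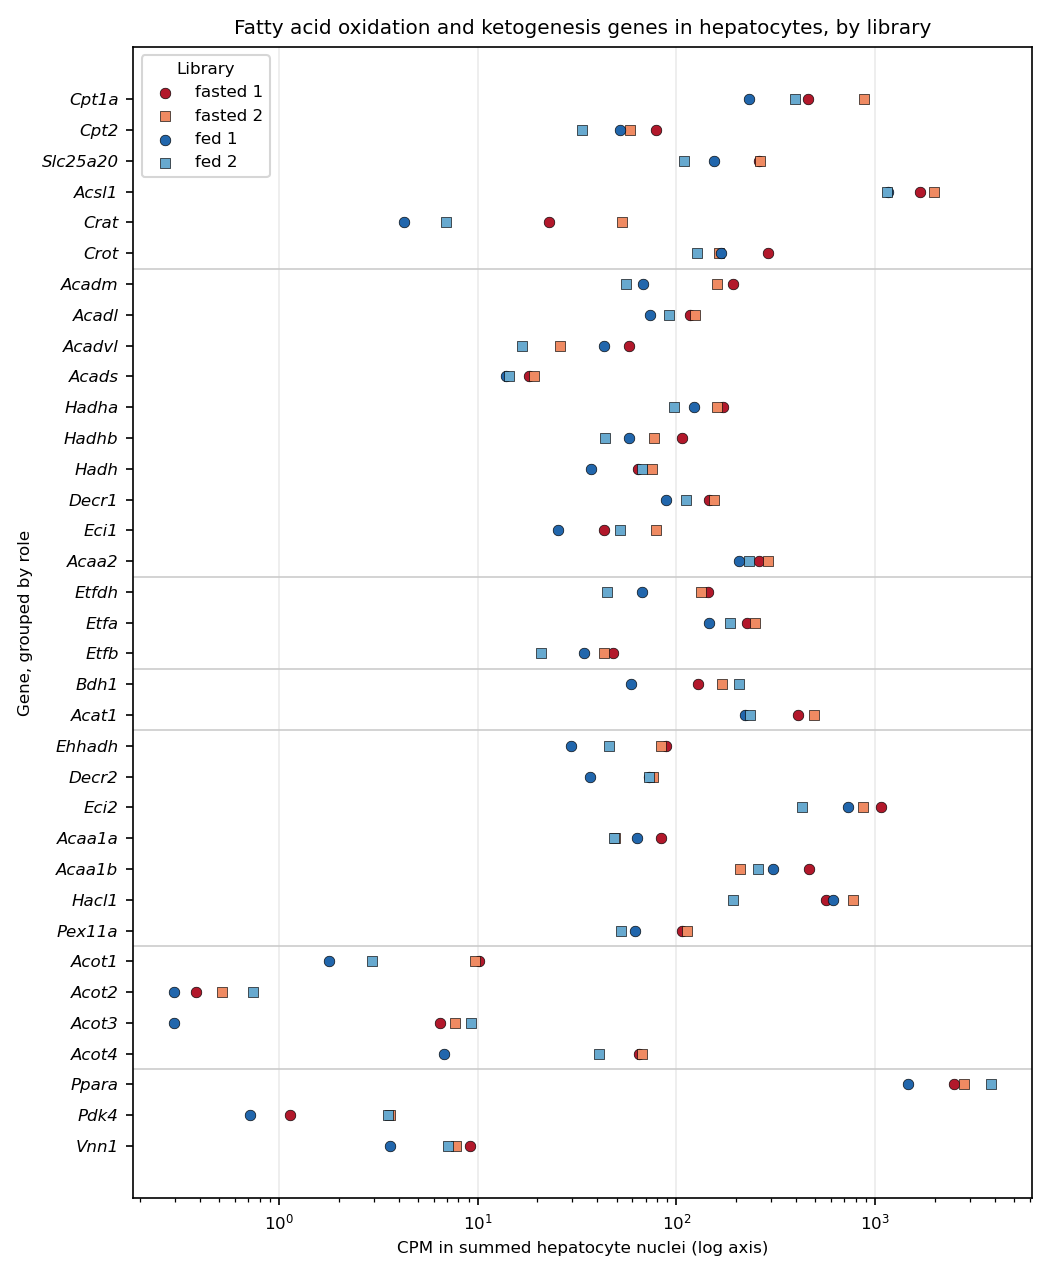
Levels of the 35 genes in summed hepatocyte nuclei, in CPM on a log axis, with 1 point per library and genes grouped by role. Red and orange points (fasted) lie to the right of both blue points (fed) for 23 of the 34 tested genes, while Ppara, Bdh1 and Pdk4 are among those whose groups overlap.

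Activation and carnitine entry came first in the pathway, and all 6 of its members had fold changes above 0 (median 0.81), with non-overlapping groups for 5. Crat, the carnitine acetyltransferase that moves short acyl groups between coenzyme A and carnitine (chromosome 2, 30400471 to 30415813 of GRCm38, minus strand), had 22.9 and 53.2 CPM in fasted 1 and fasted 2, and 4.27 and 6.93 CPM in fed 1 and fed 2. Both fasted libraries lay far above both fed ones, and fasted 2 lay well above fasted 1. This gave a log2 fold change of 2.75 (SE 0.59, 2 libraries per group; edgeR adjusted p = 0.504), and DESeq2 gave 2.72 with an adjusted p of 0.00110. Cpt1a, which makes long-chain acylcarnitines at the outer mitochondrial membrane and sets the pace of entry (chromosome 19, 3322334 to 3385733, plus strand), had 461 and 874 CPM (fasted) versus 231 and 394 CPM (fed). The groups did not overlap, but the spread within each was wide, with replicate 2 the higher in both. The log2 fold change was 1.05 (SE 0.48; edgeR adjusted p = 0.756). Slc25a20, the carrier that takes acylcarnitines across the inner membrane, was at 261 and 264 CPM versus 154 and 109.7 CPM, or 0.97 (SE 0.30; edgeR adjusted p = 0.631). Its fasted libraries nearly coincided. Acsl1, which activates long-chain fatty acids, was at 1677 and 1977 CPM versus 1162 and 1146 CPM, or 0.63 (SE 0.31). Cpt2, which releases the acyl group inside mitochondria, and Crot, which makes carnitine esters in peroxisomes, had 0.65 and 0.59.

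The 10 enzymes that shorten the chain in mitochondria all had fold changes above 0 (median 0.52), with non-overlapping groups for 7. Acadm, the medium-chain acyl-coenzyme A dehydrogenase (chromosome 3, 153922357 to 153944632, minus strand), had 194 and 159 CPM (fasted) versus 68.0 and 55.6 CPM (fed). Libraries within a group lay close together, and the groups were well apart. The log2 fold change was 1.48 (SE 0.30; edgeR adjusted p = 0.469), the smallest unadjusted p of the set, and DESeq2 gave 1.46 with an adjusted p of 0.0306. Leaving out each library in turn kept it between 1.36 and 1.58. In nuclei thinned to 1000 UMIs, Acadm was detected in 18.0% and 14.3% of fasted hepatocytes and 6.41% and 5.51% of fed ones, after leaving out 150, 62, 169 and 1230 shallower nuclei in the order fasted 1, fasted 2, fed 1 and fed 2. Without thinning the shares were 44.4%, 40.9%, 18.2% and 8.98% in that order, at hepatocyte median depths of 2927.5, 3240, 2550 and 1282 UMIs. In endothelial nuclei of fasted 1, fasted 2 and fed 1 the thinned shares were 8.51%, 8.43% and 4.12% at median depths of 809, 891 and 839 UMIs. These medians lie below 1000 UMIs, so thinning left out most endothelial nuclei and the shares describe the deeper ones only. Thinned hepatocyte shares lay above those of the deeper endothelial nuclei in those 3 libraries, and the latter were not 0.

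Hadha and Hadhb encode the subunits of the trifunctional protein, which carries out the later steps for long chains. Their RefSeq start sites lie 273 bases apart on opposite strands of chromosome 5. Hadha was at 172 and 161 CPM (fasted) versus 122 and 96.8 CPM (fed), giving a log2 fold change of 0.58 (SE 0.29). Hadhb was at 107 and 77.5 CPM versus 57.9 and 43.5 CPM, or 0.83 (SE 0.32). Neither pair of groups overlapped, and neither gene passed. The other dehydrogenases had 0.50 for Acadl, 0.45 for Acadvl and 0.37 for Acads, which act on long, very long and short chains. Hadh, the short-chain hydroxyacyl dehydrogenase, had 0.37, and Acaa2, the mitochondrial thiolase, had 0.29. Eci1 and Decr1, which prepare unsaturated chains, had 0.62 and 0.54.

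Electron transfer was represented by 3 genes, all with non-overlapping groups. Etfdh, the oxidoreductase that passes electrons from the flavoprotein to ubiquinone, was at 145 and 133 CPM (fasted) versus 67.4 and 45.0 CPM (fed). Both fasted libraries lay well above both fed ones. The log2 fold change was 1.28 (SE 0.32; edgeR adjusted p = 0.533). Etfb, a flavoprotein subunit, was at 47.7 and 43.2 CPM versus 34.3 and 20.9 CPM, or 0.69 (SE 0.35), and its partner Etfa had 0.47. Of the ketone body genes, Acat1, which joins acetyl-coenzyme A units, was at 409 and 491 CPM versus 223 and 234 CPM. The groups were clearly apart, with a log2 fold change of 0.94 (SE 0.31; edgeR adjusted p = 0.634). Bdh1, which turns acetoacetate into beta-hydroxybutyrate, was at 129 and 170.0 CPM versus 59.1 and 207 CPM. Its fed libraries lay on either side of the fasted ones, and its log2 fold change was 0.10 (SE 0.62).

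**Figure D2:**
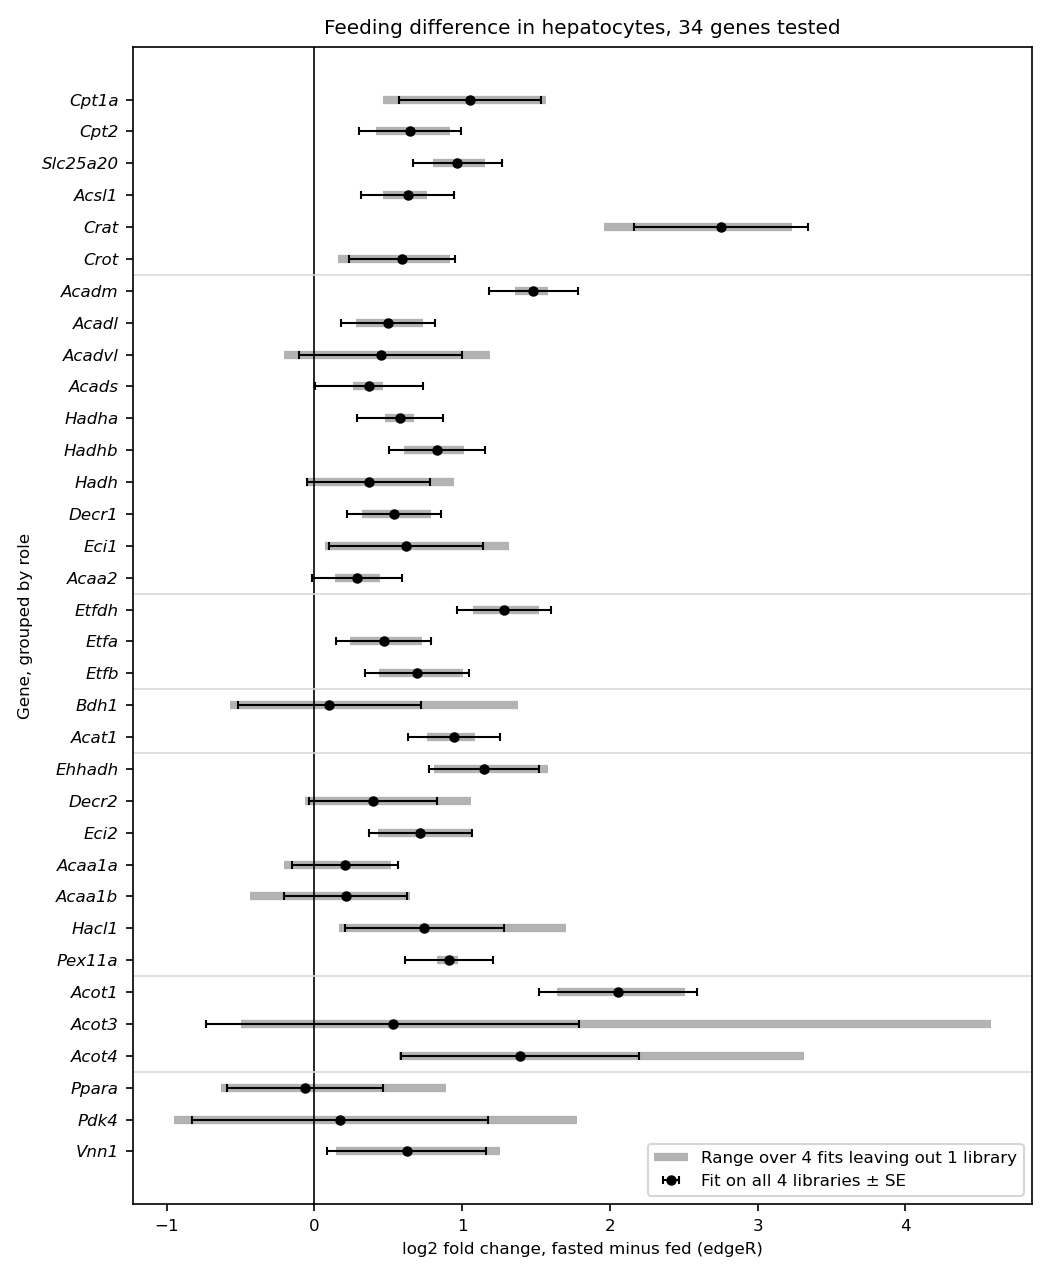
Log2 fold change (fasted minus fed) of the 34 tested genes in hepatocytes, as black points with SE from edgeR, and grey bars for the range over 4 fits that each left out 1 library. Grey bars of Acadm, Etfdh, Slc25a20, Pex11a and Acat1 are short and above 0, and those of Acot3, Pdk4, Bdh1 and Ppara span 0 widely.

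Peroxisomal genes had a median of 0.72, with all 7 above 0 and 4 with non-overlapping groups. Ehhadh, the bifunctional enzyme of the peroxisomal cycle, was at 88.2 and 83.6 CPM (fasted) versus 29.4 and 45.6 CPM (fed), or 1.15 (SE 0.37; edgeR adjusted p = 0.633). Pex11a, which promotes peroxisome division, was at 107 and 113 CPM versus 62.3 and 52.7 CPM, or 0.91 (SE 0.30; edgeR adjusted p = 0.633). Eci2, an isomerase for unsaturated chains, was at 1072 and 865 CPM versus 733 and 428 CPM, or 0.72 (SE 0.35). All 3 had separate groups. Hacl1, which cleaves branched and 2-hydroxy chains, was at 566 and 776 CPM versus 612 and 193 CPM, or 0.75 (SE 0.54), so that fed 1 lay between the fasted libraries. Decr2 had 0.40. The thiolases Acaa1a and Acaa1b each had 0.21. They are near-identical copies 183 kilobases apart on chromosome 9, and reads could be split between them in an uncertain way.

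The acyl-coenzyme A thioesterases Acot1 to Acot4 lie within 72.5 kilobases of chromosome 12 and are similar in sequence, so their counts are uncertain for the same reason. Acot1, the cytosolic form, was at 10.2 and 9.71 CPM (fasted) versus 1.78 and 2.95 CPM (fed), giving a log2 fold change of 2.05 (SE 0.53; edgeR adjusted p = 0.558). Acot4, a peroxisomal form, was at 64.5 and 66.9 CPM versus 6.76 and 41.0 CPM, or 1.39 (SE 0.80). Acot3 was at 6.47 and 7.69 CPM versus 0.297 and 9.29 CPM, or 0.53 (SE 1.26). For all 3, fed 1 was the lowest library, and the fed libraries of Acot3 lay on either side of the fasted ones. Ppara itself was at 2506 and 2809 CPM versus 1466 and 3838 CPM, a log2 fold change of -0.06 (SE 0.53). Pdk4, the kinase that shuts off pyruvate use, was at 1.14 and 3.61 CPM versus 0.712 and 3.54 CPM (0.17, SE 1.00). Vnn1, a pantetheinase and PPAR-alpha target, was at 9.19 and 7.75 CPM versus 3.62 and 7.08 CPM (0.62, SE 0.54).

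With 1 library left out, the calls depended on which one it was. Without fed 2, edgeR called 5 members higher in fasted, which were Crat (3.20), Acot1 (2.51), Acot3 (4.58), Acot4 (3.31) and Cpt1a (1.57), against 1.01% of all genes called higher in that fit. Without fed 1 it called 1 member of 35, Hacl1 (1.70), against 1.36%, and without fasted 1 or fasted 2 it called 0 members. Fold changes of Acadvl, Acaa1a and Acaa1b turned below 0 without fasted 1 (-0.20, -0.20 and -0.44). Without the acute-phase cluster, Acadm had 1.37, Crat 2.70, Eci2 0.60 and Hacl1 0.50, and the median over the members was 0.55. In fed 1, Eci2 was then at 826 CPM and Hacl1 at 756 CPM. The position fits below kept that cluster, and its part in them was not tested.

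Other genes of the pathway were read in the same fit from lists outside the 35. Of all genes in that fit, 20.6% were higher and 15.7% lower in both fasted libraries. DESeq2 called 0.481% of all genes higher and 0.619% lower, and edgeR 0.00715% and 0%. Other PPAR-alpha targets had the largest median of these lists, 1.33, with all 14 tested of 16 above 0, 12 with non-overlapping groups, and 1 called by edgeR. That gene was Cyp4a14, which hydroxylates fatty acids at the chain end (7.27, SE 0.46; edgeR adjusted p = 0.0407), and DESeq2 called it with 4 others of the list. Cyp4a10 and Cyp4a31, of the same family and similar in sequence, had 5.74 and 4.23, and G0s2, an inhibitor of fat breakdown, had 2.12. Genes that brake or feed the carnitine step had a median of -0.47, with 3 of 7 lower in both fasted libraries, 1 higher, and 0 called by edgeR. Acaca makes malonyl-coenzyme A, which inhibits the Cpt1a enzyme. It was at 272 and 270 CPM (fasted) versus 969 and 830 CPM (fed), or -1.76 (SE 0.30; edgeR adjusted p = 0.422), and DESeq2 gave an adjusted p of 0.000859. Fasn and Acly, which also serve fatty acid synthesis, had -2.55 and -1.41, and the carnitine importer Slc22a5 had 1.36. The remaining genes of this list, Acacb, Mlycd and Slc25a1, had 0.67, 0.59 and -0.47, each with overlapping groups.

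Among 17 other peroxisomal genes, 7 were higher and 1 lower in both fasted libraries, against 20.6% and 15.7% of all genes. In edgeR 0 were called. Nudt7, which hydrolyses coenzyme A in peroxisomes, was at 240.0 and 160 CPM (fasted) versus 1682 and 821 CPM (fed). It was lower in both fasted libraries by a wide margin, or -2.67 (SE 0.44; DESeq2 adjusted p = 5.55e-06; edgeR adjusted p = 0.414). Ech1, another isomerase, had 1.75 (DESeq2 adjusted p = 0.0151), Pex19, a peroxisomal import factor, 1.31 and Acot8, a peroxisomal thioesterase, 1.10. In the list of 12 genes for uptake, activation and binding, 5 had fold changes above 0 and 7 below, with edgeR calling 0. Acsl3, an acyl-coenzyme A synthetase, had -1.57 (DESeq2 adjusted p = 0.0306), the transporter and synthetase Slc27a2 had 0.96, Cd36 had 0.95 and Acsl4 had -0.61.

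Ketone body transport and use gave the only list with a median below -1. It had -1.07 over 6 genes, with 4 lower and 0 higher in both fasted libraries and 0 called by edgeR. Of all genes, 15.7% were lower and 20.6% higher in both fasted libraries. Aacs, which turns acetoacetate toward lipid synthesis, was at 31.7 and 33.5 CPM (fasted) versus 158 and 96.0 CPM (fed), or -1.98 (SE 0.35; DESeq2 adjusted p = 0.000819). Oxct1, which uses ketone bodies and is known to be low in liver, had -2.08 from 0.103 to 1.33 CPM, Slc16a6 had -1.25 and Bdh2 -0.89. Receptors and cofactors had a median of 0.05 over 13 genes with 0 calls in edgeR. Ppargc1a, the coactivator of fasting programmes, had 1.43 and Lpin2 0.98, while Foxa2 had -0.64. Branched-chain and propionate genes that share enzymes with the pathway had a median of 0.40 over 12 genes, again with 0 calls, and Acad10, Pcca, Acad11 and Hibch had 0.86, 0.65, 0.59 and 0.46.

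Since many members had higher levels together, their promoters were read for the direct repeat that PPAR-alpha binds with its partner RXR. RefSeq promoters (GRCm38.p6, 250 bases before to 50 after a start) were given for 30 of the 35 members, 33 promoters in all. Acaa2, Acat1, Crat, Decr1 and Vnn1 had no entry. The motif searched, on both strands, was AGGTCA repeated after 1 free base, 13 bases in all. No member promoter held it with at most 1 mismatch, against 0.554% of 32851 promoters. With at most 2 mismatches it was in 3 of 33 member promoters (9.091%), against 3.86% of all, and with at most 3 in 10 of 33 (30.3%) against 24.65%. The windows below are the 3 nearest matches and that of Acadm, which had 3 mismatches and the smallest unadjusted p. Capitals mark the 13 bases aligned to the motif, read 5′ to 3′ on the strand of the match. 
Acot4 (chr12:84038358-84038386, minus strand): gcacagacCGGCCAAAGGTCAtgcttcgg
Etfa (chr9:55512300-55512328, plus strand): ttgggagtAGGGCAAAGGTAAgggtgtgc
Slc25a20 (chr9:108662134-108662162, plus strand): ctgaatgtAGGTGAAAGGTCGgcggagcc
Acadm (chr3:153944607-153944635, minus strand): agtctgagAGCTCAGACCTCAtctgtgtg
These genes had fasted-minus-fed values of 1.39, 0.47, 0.97 and 1.48. A match describes these letters only and is not evidence of binding.

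Position in the lobule was the next comparison, and here members were called, more of them on the central than on the portal side. A score per nucleus was built from 8 pericentral and 9 periportal landmark genes, none of them a member, in 14965 hepatocytes thinned to 1500 UMIs. Nuclei of each library were divided into 3 bins of equal size, and the central bin was compared with the portal bin with library as a block. edgeR called 10 of 34 members higher in the central bin and 4 higher in the portal bin, where 8.59% of 12335 genes were called in each direction. In all 4 libraries 13 members were higher centrally, against 15.8% of all genes, and 3 were higher portally, against 16.1%. The portal calls were thus near the share of all genes, and members portal in all 4 libraries were no more common than that share. Peroxisomal and thioesterase genes and linked targets made up 8 of the 10 central calls. Median depth per nucleus also increased from the portal to the central bin in each library, from 2825 to 3445 UMIs in fasted 1 and from 2226 to 2412 UMIs in fed 2, and its part was not tested.

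Of the 7 peroxisomal genes, 4 were called central and 1 portal. Eci2 (chromosome 13, 34977748 to 35027096, minus strand) was at 987 CPM in the portal and 1183 CPM in the central bin of fasted 1, and at 792 and 923 CPM in fasted 2. In fed 1 it was at 503 and 1002 CPM, and in fed 2 at 332 and 561 CPM. It was higher centrally in every library, and more steeply so in the fed ones. Its position effect (log2, central minus portal) was 0.56 (SE 0.05; edgeR adjusted p = 3.05e-08). Pex11a (chromosome 7, 79735957 to 79743131, minus strand) went from 87.9 to 133 CPM, 89.2 to 136 CPM, 50.3 to 74.4 CPM and 38.0 to 86.6 CPM in fasted 1, fasted 2, fed 1 and fed 2. All 4 libraries had the higher level centrally, with an effect of 0.67 (SE 0.08; edgeR adjusted p = 9.41e-07). Acaa1a went from 71.2 to 94.8, 38.4 to 59.8, 46.3 to 78.2 and 33.97 to 58.8 CPM in the same order, an effect of 0.63 (SE 0.08; edgeR adjusted p = 3.19e-06). Acaa1b went from 402 to 517, 186 to 228, 184 to 424 and 204 to 305 CPM, or 0.64 (SE 0.08; edgeR adjusted p = 0.000119). Both thiolases were thus higher centrally in each library, within the limit that reads may be split between them. Ehhadh and Decr2 had 0.06 and 0.02.

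Hacl1 (chromosome 14, 31598730 to 31641286, minus strand) was the peroxisomal gene on the portal side. It went from 664 CPM in the portal to 484 CPM in the central bin of fasted 1 and from 929 to 623 CPM in fasted 2. In the fed libraries it was level, at 608 and 631 CPM in fed 1 and 196 and 189 CPM in fed 2. Its effect was -0.26 (SE 0.05; edgeR adjusted p = 0.00106).

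**Figure D3:**
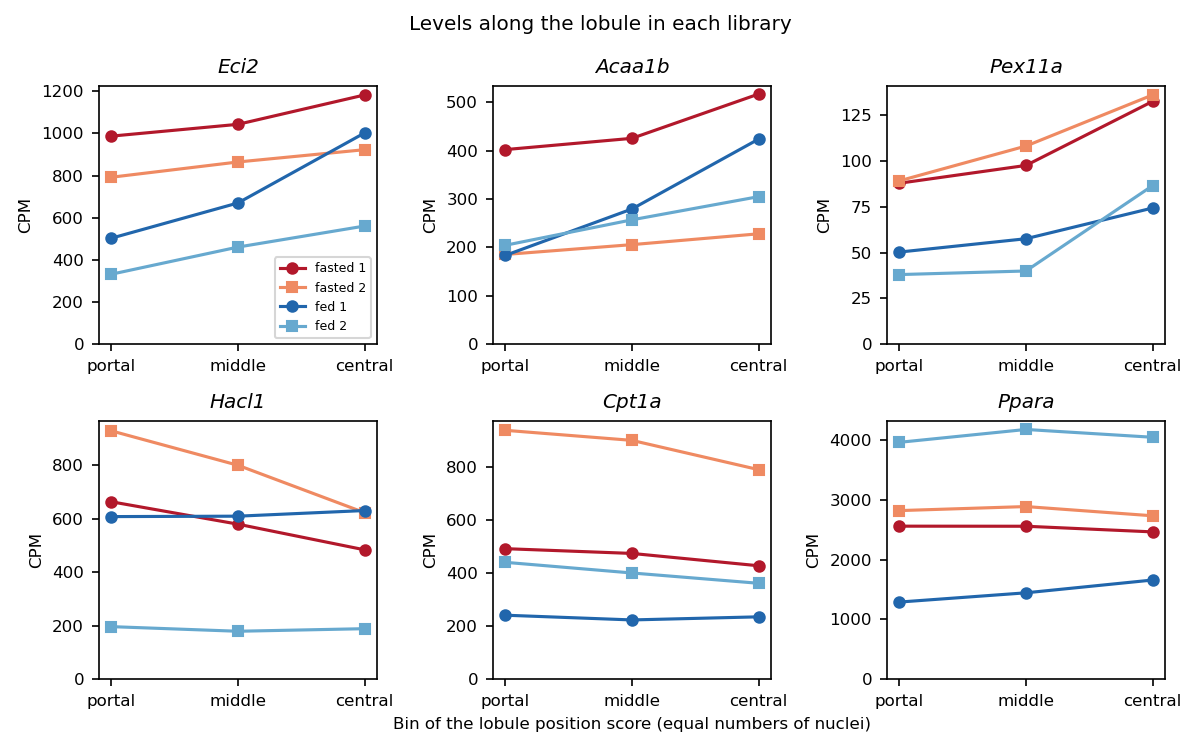
CPM of 6 genes in the portal, middle and central bins of the lobule position score, with 1 line per library on axes that start at 0. Eci2 climbs more steeply in fed 1 and fed 2 than in the fasted libraries, Hacl1 slopes down in the fasted libraries only, and Ppara is nearly level in 3 libraries.

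The other central calls were the linked targets Pdk4 and Vnn1, the thioesterases Acot1 and Acot4, and the mitochondrial enzymes Bdh1 and Eci1. Pdk4 went from 0.545 to 2.26, 0.544 to 6.80, 0 to 1.34 and 2.04 to 6.46 CPM in fasted 1, fasted 2, fed 1 and fed 2, an effect of 2.65 (SE 0.56; edgeR adjusted p = 0.00116), and the 0 in fed 1 allows up to 0.640 CPM. Vnn1 went from 6.18 to 11.8, 5.80 to 11.1, 0.853 to 6.38 and 6.79 to 11.6 CPM, or 1.33 (SE 0.27; edgeR adjusted p = 0.000720). Pdk4 and Vnn1 were both higher centrally in every library, at low counts. Acot1 went from 4.90 to 13.3 CPM in fasted 1, 5.08 to 14.04 CPM in fasted 2, 1.28 to 2.52 CPM in fed 1 and 2.72 to 3.23 CPM in fed 2, or 1.08 (SE 0.31; edgeR adjusted p = 0.0159). Acot4 went from 54.9 to 68.1, 60.4 to 74.5, 4.69 to 8.39 and 35.3 to 49.1 CPM, or 0.45 (SE 0.12; edgeR adjusted p = 0.00967). Acot3 had 0.92 (SE 0.36) and did not pass in this fit (edgeR adjusted p = 0.0920), but did in a linear trend over the 3 bins (edgeR adjusted p = 0.0366).

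The ketone enzyme Bdh1 went from 118 to 132, 162 to 170.2, 51.8 to 69.7 and 161 to 253 CPM, or 0.32 (SE 0.06; edgeR adjusted p = 0.000601). Eci1 went from 42.9 to 43.5, 72.2 to 82.8, 17.5 to 29.7 and 47.6 to 53.6 CPM, or 0.31 (SE 0.10; edgeR adjusted p = 0.0394). Each was higher centrally in every library, and the difference was slight in fasted 2 for Bdh1 and in fasted 1 for Eci1. Decr1 went from 147 to 146, 147 to 154, 82.5 to 95.2 and 87.6 to 125 CPM, or 0.16 (SE 0.06; edgeR adjusted p = 0.0936), and passed only in the linear trend over the 3 bins (edgeR adjusted p = 0.0473).

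The portal calls beside Hacl1 were 1 of 6 genes of activation and carnitine entry, 1 of 3 of electron transfer and 1 of 2 ketone body genes. Cpt1a went from 492 to 428, 939 to 791, 241 to 235 and 441 to 362 CPM from the portal to the central bin, in the order fasted 1, fasted 2, fed 1 and fed 2. It was lower centrally in every library, only slightly in fed 1, with an effect of -0.19 (SE 0.05; edgeR adjusted p = 0.0132). Etfb went from 50.1 to 46.3, 45.7 to 39.6, 40.5 to 25.0 and 19.0 to 13.6 CPM, or -0.41 (SE 0.10; edgeR adjusted p = 0.00572). Acat1 went from 443 to 374, 567 to 425, 224 to 219.9 and 245 to 244 CPM, or -0.18 (SE 0.05; edgeR adjusted p = 0.0221). The 2 ketone body genes, Acat1 and Bdh1, were thus called on opposite sides. The remaining 20 members ranged from -0.17 (Acsl1) to 0.92 (Acot3), and the median over the 34 was 0.07 against -0.01 for all genes. Acsl1 did not pass in this fit (edgeR adjusted p = 0.110), but did in the linear trend over the 3 bins (edgeR adjusted p = 0.0474).

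These calls rested in part on the tool and on single libraries. DESeq2 called 8 of the 14, namely Pdk4, Pex11a, Acaa1a, Acaa1b, Vnn1, Eci2, Bdh1 and Hacl1, where it called 4.65% of genes central and 4.19% portal. Without fasted 1 edgeR called 6 members central and 1 portal, against 5.15% and 4.64% of genes, and without fasted 2 it called 6 and 0, against 4.96% and 4.31%. Pex11a, Acaa1a, Acaa1b and Eci2 were called in each of the 4 fits that left out a library.

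Whether the position effect itself differed between fasted and fed hepatocytes was tested as a term of the same fit. It passed for 2 members, Eci2 and Hacl1, where 0.17% of 12335 genes had a more central effect in fed and 0.146% a more central effect in fasted. For Eci2 the position effect was 0.88 (SE 0.08) in fed and 0.24 (SE 0.07) in fasted, a difference of -0.64 (SE 0.11; edgeR adjusted p = 0.00982). For Hacl1 it was 0.00 (SE 0.08) in fed and -0.52 (SE 0.07) in fasted, a difference of -0.52 (SE 0.11; edgeR adjusted p = 0.0330). By these bins, both genes thus had levels tilted more toward the portal side in fasted hepatocytes. DESeq2 gave adjusted p-values of 0.273 and 1.00 for them, and called 0.00811% of genes with a more central effect in fed and 0% in fasted. Without fasted 1 or without fasted 2 neither passed. The differences then were -0.69 and -0.60 for Eci2, and -0.61 and -0.44 for Hacl1. Without fed 1 Hacl1 did not pass, and the differences were -0.47 for Eci2 and -0.42 for Hacl1. Without fed 2 they were -0.75 and -0.57. Nor did either pass with the replicate number as the block in place of the library (edgeR adjusted p of 1.00 for each, with 0 genes called). That fit does not pair the bins of a library, so spread between libraries enters its error. Landmark detection also differed between libraries. In fasted 1, fasted 2, fed 1 and fed 2, Sds was seen in 52.9%, 53.8%, 50.5% and 11.0% of hepatocytes. Hal was seen in 41.5%, 45.0%, 23.6% and 28.95%, and the pericentral Cyp1a2 in 7.80%, 5.32%, 7.89% and 14.5%. Whether a bin marks the same place in fasted and fed liver was not tested.

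Most members without a call had differences of the same sign. Of the 34 members, 26 had a difference below 0, against 48.2% of all genes, and 8 above, with a median of -0.14 against 0.01 for all genes. Acaa1b had 0.94 in fed and 0.33 in fasted, a difference of -0.61 (SE 0.16; edgeR adjusted p = 0.274). It passed without fed 2 (-0.87), where 1.01% of genes were called with a difference below 0, and in a linear trend over the 3 bins (adjusted p = 0.0300). Bdh1 had 0.52 and 0.11, a difference of -0.41 (SE 0.13; edgeR adjusted p = 0.290). Pex11a had 0.73 and 0.60, which differed by less than its error.

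**Figure D4:**
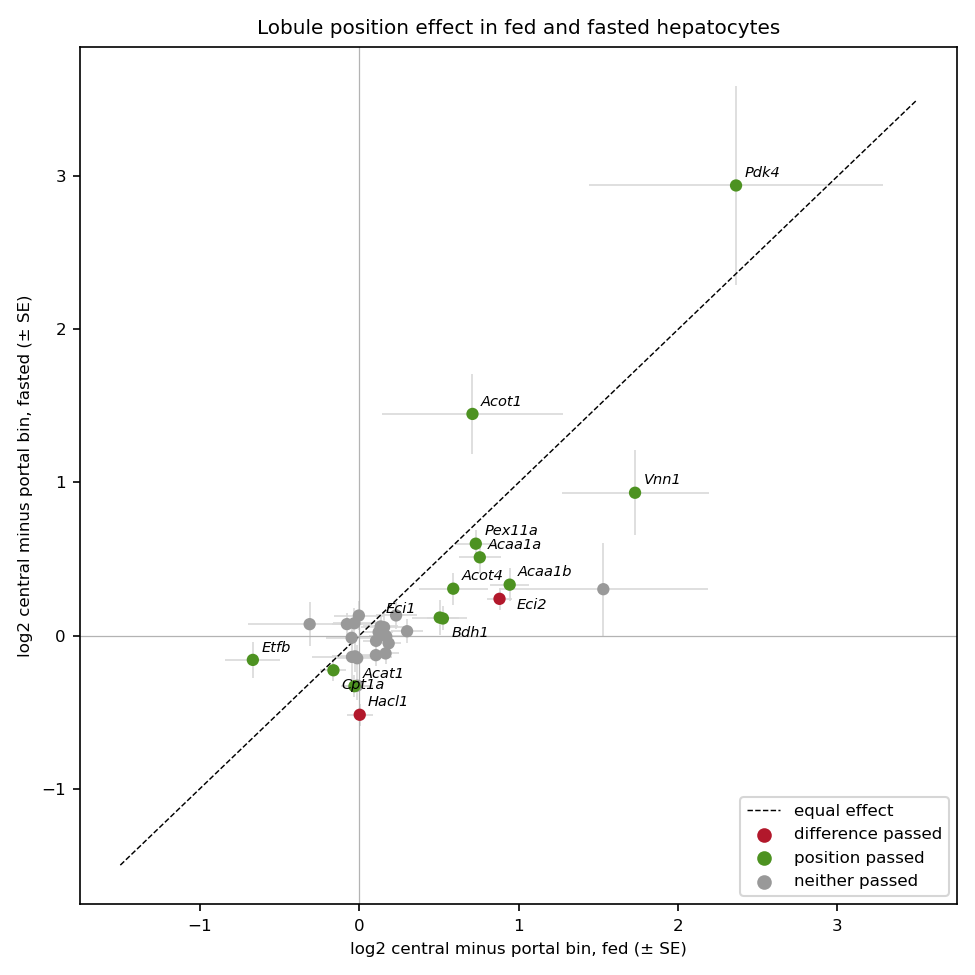
Position effect (log2, central minus portal bin, with SE) of the 34 tested genes in fed hepatocytes on the horizontal axis and in fasted hepatocytes on the vertical axis, with the dashed line marking equal effects. Most points lie below the line, and the red points Eci2 and Hacl1 are those whose difference passed the test.

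Feeding was also read within the outer bins, where counts are smaller. In the portal bin 0 of 33 members were called by edgeR, against 0.00876% of genes called higher and 0% lower, and 23 had both fasted libraries above both fed ones, against 21.5%. In the central bin 0 of 34 were called, against 0% of genes, and 21 had such groups, against 20.7%. The median log2 fold change was 0.72 in the portal and 0.44 in the central bin. Crat had 2.63 (SE 0.52) in the portal and 2.98 (SE 0.66) in the central bin, and DESeq2 called it in both, against 0.437% and 0.428% of genes. Acadm had 1.54 and 1.48. Eci2 had 1.02 (SE 0.35) in the portal bin, where its groups were separate, and 0.38 (SE 0.36) in the central bin, where fed 1 lay above fasted 2. Without fed 1 edgeR called Crat, Etfdh, Acadm and Hacl1 higher in the portal bin, 4 of 33 members against 3.24% of all genes. Without fed 2 it called Crat, Acot3, Acot4 and Cpt1a there, against 1.17%. Without fasted 1 Crat alone passed there, against 0.181%, and in the central bin only Acot4 did, without fed 2, against 0.095%.

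Nuclei of other cell types carried member transcripts as well, together with hepatocyte marker RNA. Summed hepatocyte markers reached 6671 to 11932 CPM in endothelial nuclei, 7422 to 13833 CPM in macrophage nuclei and 4674 to 15867 CPM in stellate nuclei, against 8613 to 21818 CPM in hepatocytes. Member levels had a median ratio to hepatocytes of 0.60 in fasted and 0.62 in fed endothelial nuclei, 0.75 and 0.69 in macrophages, and 0.62 and 0.64 in stellate nuclei. Hepatocyte RNA in these nuclei and their own expression of a member cannot be told apart here. In endothelial nuclei the mean level was above that of hepatocytes for 5 of 35 members in fasted (Pdk4, Acot2, Ehhadh, Acot1 and Etfb) and for 6 in fed (Pdk4, Acot3, Ehhadh, Etfa, Acot2 and Crot). Such members numbered 7 in fasted and 9 in fed macrophages, and 4 and 4 in stellate nuclei. Pdk4 and Ehhadh were among them in fasted nuclei of both types. In fasted 1, fasted 2, fed 1 and fed 2, endothelial Acot2 rested on 6, 3, 2 and 0 counts and Acot3 on 13, 4, 1 and 2. Pdk4 was at 17.9, 20.3, 11.1 and 0 CPM in endothelial nuclei of fasted 1, fasted 2, fed 1 and fed 2, above the hepatocyte level in 3 libraries. Ehhadh was at 164, 72.0, 41.5 and 45.7 CPM there in the same order. It lay above the hepatocyte level in fasted 1 and fed 1 and below it in fasted 2. In fed 2 it was level with hepatocytes (45.6 CPM) and rested on 6 counts. Fed 2 had only 131323 endothelial UMIs, where a count of 0 allows up to 22.8 CPM (3 counts, counting error only).

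Feeding differences in these types ran the same way and were not called. In endothelial nuclei 0 of 31 members passed in edgeR (0.0196% of genes called higher and 0.0098% lower) and 21 had both fasted libraries above both fed ones, against 18.2%. In macrophage nuclei 0 of 30 passed (0.0122% and 0%) and 18 had such groups, against 15.8%. In stellate nuclei 0 of 30 passed (0.0264% and 0.0132%) and 12 had such groups, against 14.1%. Acadm had 1.52 in endothelial, 1.27 in macrophage and 1.41 in stellate nuclei, near its hepatocyte value. In fed 2 it rested on 3, 4 and 3 counts in these types. The part of hepatocyte RNA in these differences was not tested. Without fed 2 edgeR called Pex11a and Acot4 higher in endothelial nuclei, 2 of 33 members against 0.621% of all genes. Without fasted 2 it called Acsl1 and Ehhadh higher in stellate nuclei, 2 of 30 against 0.48%.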

How the data were processed

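RNA of single nuclei was counted in 4 libraries. The deposited matrices hold UMI counts, aligned to mm10 with Cell Ranger 6.0 per the submitters' processing notes. The sources used here do not give whether introns were counted. Between 13.2% and 17.0% of stored entries were 0, by a step that no header or label records. Barcodes under 500 genes or over 5% mitochondrial UMIs were dropped, and the highest Scrublet doublet scores were removed at 0.8% per 1000 barcodes. Clustering used scanpy 1.11.5 (2000 variable genes, 30 components, 15 neighbours, Leiden resolution 1), and clusters were named from marker lists. Counts were summed per library and cell type and tested in edgeR 4.0.16 (quasi-likelihood F test, robust, TMM, filterByExpr, R 4.3.3) over all genes, with Benjamini-Hochberg adjustment at 0.05. SE is the size of the fold change divided by the square root of F. DESeq2 1.42.0 was the other tool. The lobule score is the mean z-score of pericentral minus periportal landmarks, using those seen in 2% or more of each library's hepatocytes. Scripts were tested on simulated data. Members and gene lists were chosen with earlier results of these data known. Values per library are given for members called in any test, the 14 with the smallest unadjusted p for feeding and the 8 for position, and the 4 with the smallest p are named from each other list, except 1 gene that is not reported here. A few further members were given in full after their values were seen. In the list that brakes or feeds the carnitine step, every gene is named. Gene positions are from GENCODE on GRCm38.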

Additional observations from a re-analysis of the deposited data

Results flagged for a closer look

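The position effect of Eci2 along the lobule differed between the feeding states, by -0.64 on the log2 scale (fasted minus fed), in a direct test of that difference in edgeR. The position effect of Hacl1 differed by -0.52 in the same test. Whether a bin marks the same place in fasted and fed liver was not tested. A replicate block in place of the library block does not pair the bins of a library, so spread between libraries enters its error. DESeq2 called neither, and edgeR called neither with the replicate number as a block (adjusted p of 1.00 for each) or with fasted 1 or fasted 2 left out.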

How the results depend on the processing

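With 2 libraries per group, each count of calls moved with the setting, and the cause was not tested. In hepatocytes edgeR called 1 gene for feeding, and 0 with RLE scaling or stored zeros counted as 1, 272 without the low-count filter and 151 with DESeq2, while members called went from 0 to 2 in both of the latter. Leaving out 1 library gave 3 to 330 genes and 0 to 5 members. For position, 2118 genes and 14 members became 1091 and 8 with DESeq2, and 1169 to 2509 and 6 to 15 with 1 library left out. For the difference of position effects, 39 genes became 86 without the filter, 1 with DESeq2, 24 without doublet removal and 84 with a linear trend. Its 2 members became 0 with DESeq2 and 1 without doublet removal, and 1 library left out gave 0 to 244 genes and 0 to 5 members. DESeq2 called 108 genes and 1 member in the portal bin and 85 and 1 in the central bin, where edgeR called 1 and 0 genes. There, leaving out a library gave 10 to 657 genes and 0 to 4 members, and 3 to 44 and 0 to 1. In endothelial, macrophage and stellate nuclei edgeR called 3, 1 and 3 genes and DESeq2 16, 8 and 7. Leaving out a library gave 6 to 132, 2 to 6 and 2 to 51 genes, with 0 to 2 members in endothelial and stellate nuclei.

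The replicate numbers are shared by the groups, but the labels state no pairing and there are only 2 pairs. Deviations of same-numbered libraries correlated at 0.629 over 10423 genes. With a replicate block edgeR called 28 genes and 1 member (Crat) in hepatocytes, 376 and 6 in the portal bin, and 137 and 2 in the central bin. With that block, it called 189 genes and 4 members in endothelial, 108 and 2 in macrophage and 54 and 1 in stellate nuclei. For the difference of position effects, where that block replaced the library block, 0 genes and 0 members were called.

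Some feeding directions in hepatocytes turned. Ppara had 0.0026 with library totals, 0.0051 without the filter and 0.13 with the replicate block. With 1 library left out, Ppara ranged from -0.63 to 0.89, Acadvl from -0.20 to 1.19, Acaa1a from -0.20 to 0.52, Acaa1b from -0.44 to 0.65, Bdh1 from -0.57 to 1.38, Pdk4 from -0.95 to 1.78, Hadh from -0.054 to 0.94, Decr2 from -0.067 to 1.06 and Acot3 from -0.49 to 4.58. Depth limits the scarce members most, Acot2, Acot3, Pdk4 and Vnn1 among them. The fits without the acute-phase cluster and with library totals, the DESeq2 fits in the outer bins, and the replicate block in the outer bins and the other cell types were chosen after seeing the data.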
